A study of Mus musculus with 4 samples.

Results

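The cytosolic ribosomal protein genes were 86 of the 27998 genes in the gene table of the E8.5 libraries. They were chosen by symbol alone: Rps or Rpl followed by a number, Rplp0, Rplp1, Rplp2 and Rpsa. Of 113 symbols matched, 27 were dropped as named pseudogene copies, ribosomal protein S6 kinases or an S19-binding protein. Matching by Ensembl identifier found 85 members in all 4 libraries. Rpl6l, a near copy of Rpl6, was missing from the table used for cKO E9.5.

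The libraries held single cells of Swiss Webster mouse embryos that carried a Rosa26 GFP reporter, which Cre made from the Tbx1 locus switches on. Ctrl embryos were Tbx1Cre/+;Rosa26-GFPflox/+ and cKO embryos were Tbx1Cre/flox;Rosa26-GFPflox/+, each at embryonic day E8.5 and E9.5. Cre was a knock-in that inactivates 1 copy of Tbx1, so the Ctrl embryos were already heterozygous, and the reporter marks every cell descended from a Tbx1-expressing cell, endoderm and ectoderm derivatives included. Tissue of several embryos, the upper body at E8.5 and the pharyngeal region with the heart and back at E9.5, was pooled before GFP-positive, DAPI-negative cells were sorted. Each group was 1 library, so no test between groups was possible and genotype or stage cannot be told apart from library. Intervals below are exact 95% counting intervals and cover counting error only.

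The libraries, in the order Ctrl E8.5, cKO E8.5, Ctrl E9.5 and cKO E9.5 used throughout, held 1434, 1090, 5453 and 6266 cells. Their totals ran from 25391654 to 104773150 unique molecular identifiers (UMIs), each standing for 1 captured transcript molecule counted near its 3′ end, and median depth ran from 15911 to 23984 UMIs a cell. Libraries shared between 2 and 55 cell barcodes. The cKO E9.5 library was counted on another gene table (31053 genes) than the other 3, and the 27514 shared identifiers held over 99% of UMIs in each library. Levels are given as UMIs per 1000000 UMIs of these shared genes (UPM). Tbx1 itself stood at 86.4, 118, 103 and 134 UPM. The sources used here do not say which Tbx1 exons the loxP sites flank, so a 3′ count does not check the genotype, and Ctrl and cKO mean the libraries so labelled. All 12 lists of cell type markers were counted, and the summed blood markers stood at 0.634, 0.233, 68.3 and 4.91 UPM, with 5 and 8 of 8 genes at 3 UMIs or fewer in the E8.5 libraries.

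Each ribosome in the cytosol is built from a small subunit, which reads the messenger RNA, and a large subunit, which joins amino acids, and nearly all of their proteins are needed in the same amount. The genes are therefore expressed together, and in growing embryonic cells they account for a large part of all messenger RNA. Many of their transcripts begin with a C followed by an unbroken stretch of pyrimidines, the 5′ terminal oligopyrimidine (TOP) tract through which growth signalling controls their translation.

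The start sites showed this shared feature, which the choice of members by name did not use. RefSeq start windows (build GRCm38.p6) were found for 65 of the 86 members. A C within 10 bases of the start site that was followed by at least 6 further C or T, on the transcribed strand only, was present in 30 of the 65 (46.2%), against 14.1% of all 27025 genes with a window. The share was 48.0% for small subunit genes and 45% for large subunit genes. The windows below cover 30 bases, with the start site at the 16th base and the pyrimidine run in capitals. The first 4 genes hold a run and carry results described below, and the last 2 are strongly expressed members with no run by this rule. The rule depends on the annotated start site, so a member without a run here is not shown to lack a TOP tract.

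Rpl13a (chr7:45128731-45128760, minus strand): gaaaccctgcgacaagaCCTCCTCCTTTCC
Rpl15 (chr14:18270972-18271001, minus strand): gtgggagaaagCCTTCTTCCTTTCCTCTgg
Rpl38 (chr11:114668565-114668594, plus strand): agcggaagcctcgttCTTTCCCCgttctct
Rpl22l1 (chr3:28805493-28805522, plus strand): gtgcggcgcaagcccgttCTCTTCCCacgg
Rpl41 (chr10:128549154-128549183, minus strand): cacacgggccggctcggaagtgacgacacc
Rps28 (chr17:33824548-33824577, minus strand): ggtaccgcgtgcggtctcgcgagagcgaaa

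Members with and without a run had like median log2 ratios in each comparison described below: 0.04 and 0.03 between genotypes at E8.5, 0.29 and 0.27 at E9.5, and -0.28 and -0.21 between stages, over 29 and 33 members.

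The 85 shared members supplied 30.3% and 30.7% of all UMIs in the Ctrl and cKO libraries of E8.5, and 24.8% and 30.9% in those of E9.5. Ctrl E9.5 was the library that stood apart. Small subunit genes made up 12.7%, 13%, 10.8% and 13.4% of UMIs, and large subunit genes 17.6%, 17.8%, 14.0% and 17.5%, so both subunits were low in that library. The share was spread over single cells and not carried by a few of them: the middle 90% of cells lay between 25.4% and 33.8% (Ctrl) and between 20.2% and 34.1% (cKO) at E8.5, and between 21.3% and 29.1% (Ctrl) and between 26.1% and 36.8% (cKO) at E9.5. Mitochondrial genes held 1.40%, 2.0%, 2.21% and 2.11% of UMIs, and whether that moved with the ribosomal protein share was not tested.

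**Figure D1:**
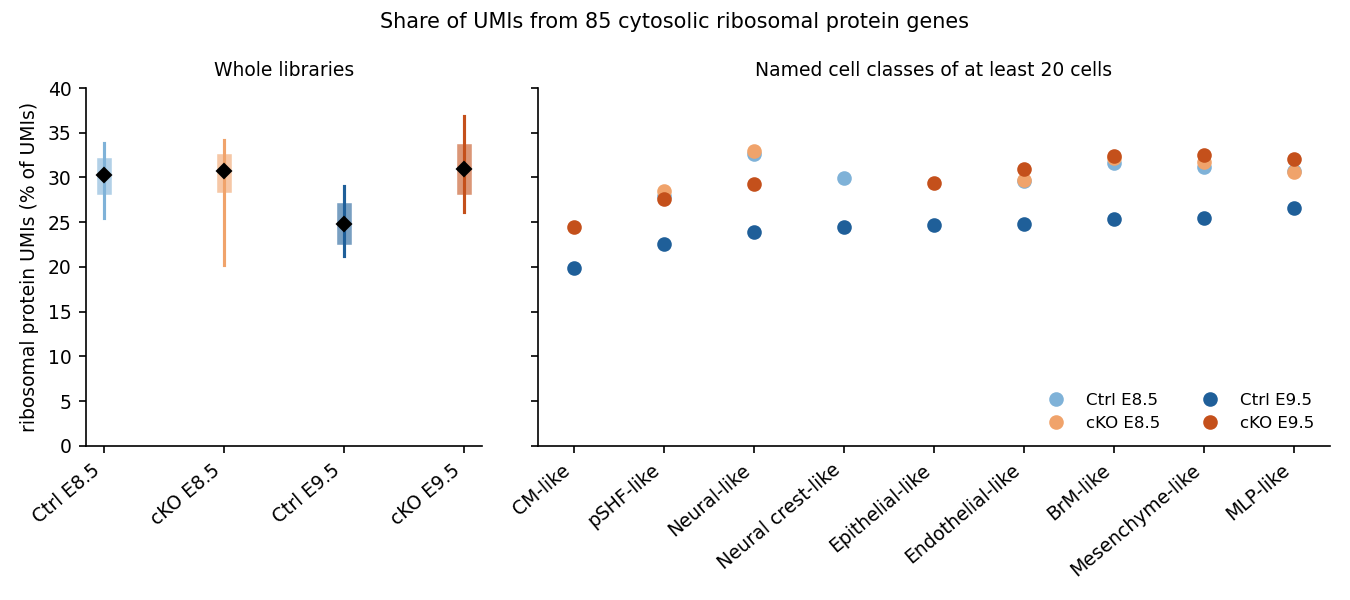
Percent of UMIs from the 85 ribosomal protein genes. Left, whole libraries: diamonds mark the share of summed UMIs, thick bars the 25th to 75th and thin lines the 5th to 95th percentile of single cells. Right, each named cell class with at least 20 cells, 1 point per library. Ctrl E9.5 (24.8%) lies below the other 3 libraries (30.3% to 30.9%), in every class shown.

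Between genotypes at E8.5 the log2 ratio of the shares, cKO over Ctrl, was 0.02 (interval 0.020 to 0.023), and it was -0.01 when every cell weighed the same or under TMM scaling (a scaling of libraries by a trimmed mean of gene ratios), so no direction can be given. At E9.5 it was 0.32 (0.319 to 0.321), higher in cKO, and 0.58 under TMM scaling. In Ctrl, E9.5 over E8.5 gave -0.29 (-0.291 to -0.288), and -0.64 under TMM scaling. The genotype comparison at E9.5 and the stage comparison both rest on Ctrl E9.5, and the stage comparison shares Ctrl E8.5 with the other. The makeup of the E9.5 libraries differed: summed epithelial markers stood at 324 UPM in Ctrl and 90.6 in cKO, endothelial markers at 314 and 112, cardiomyocyte markers at 580 and 342, and mesenchyme markers at 781 and 956. The E9.5 share was higher in cKO within all 21 clusters of at least 20 cells in both libraries, with log2 ratios from 0.23 to 0.43, and within each of the 8 named classes compared, from 0.25 in Epithelial-like to 0.35 in BrM-like cells, the latter named for branchiomeric muscle genes such as Tcf21 and Myf5.

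Cell classes were named from marker genes after clustering without the members, so no cell was placed by them. In Ctrl E9.5 the share was lowest in CM-like cells, named for cardiomyocyte genes such as Myl7 and Tnnt2, at 19.9% (108 cells), and next lowest in pSHF-like cells, named for posterior second heart field genes such as Foxf1 and Wnt2, at 22.6%. It was highest in MLP-like cells, named for genes of multilineage primed progenitors such as Aplnr and Nrg1, at 26.6% (121 cells). The range over the 9 named classes was 6.67 percentage points. Contractile markers alone were 2.64% of UMIs in the CM-like cells of this library.

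CM-like cells were also lowest in cKO E9.5 (24.5%, 54 cells), where pSHF-like cells again came next (27.6%) and Mesenchyme-like cells were highest (32.5%). At E8.5 pSHF-like cells were lowest of the classes with at least 20 cells (27.9% in Ctrl and 28.4% in cKO) and Neural-like cells highest (32.6% and 32.9%). The 17 and 14 CM-like cells of the E8.5 libraries, under that minimum, stood at 23.4% and 22.0%. An unnamed cluster whose leading genes in Ctrl were haemoglobin genes (0.416% of its UMIs in Ctrl E9.5, and 0 UMIs in the other libraries) reached 28.5% and 35.9% in the Ctrl and cKO libraries of E9.5. It stood at 29.4% in Ctrl E8.5 and 24% in cKO E8.5, where its cells were shallow (median 1391 UMIs) and mitochondrial genes held 16.2% of their UMIs.

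Gene by gene, the count of 3′ ends is not divided by transcript length, and levels are compared between libraries, not between genes. The median member stood at 3442, 3528, 2900 and 3697 UPM, and 79, 80, 75 and 79 of the 85 members were at 1000 UPM or more. Rpl41, the shortest protein of the large subunit, had the most UMIs in each library (15038, 14273, 7764 and 9197 UPM). The lowest were Rpl3l, Rpl10l and Rpl39l, each under 1 UPM in every library.

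A member is called higher or lower below where its log2 ratio of UPM was past 0.32 in either direction, among the 82 members with at least 100 UMIs over both libraries. This is a rule of size and not a test. At E9.5, 36 members were higher in cKO and 2 lower, against a background over all genes tested of 9.99% higher and 43.4% lower (53.4% in either direction). The median log2 ratio was 0.31 for the members and -0.26 for genes that are not members. Over the 354 abundant nuclear genes that are not members (300 UPM or more in both libraries) it was 0.05. By coding length, the median over other nuclear genes was 0.18 up to 300 bases, 0.14 to 450, 0.02 to 600 and -0.13 to 900. Above 900 bases, a bin that held 6113 of 8683 such genes, it was -0.34. Members in the same bins had 0.22, 0.33, 0.38, 0.22 and -0.31, the last over 3 members. TMM scaling adds 0.26 to every ratio and so brings the median of the other genes close to 0. It left 73 members past the fold, 72 higher and 1 (Rpl13a) lower. The share of all genes past the fold under this scaling was not counted. The median member lay almost on the threshold, so small shifts move many members across it.

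At E8.5, 7 members were higher in cKO and 3 lower (background 17.3% and 8.9%, 26.2% in either direction), and the median was 0.03 for members and 0.03 for other genes. The share of members past the fold, 10 of 82, was below the background. Members that passed moved the same way in every cluster compared, 10 of 10 over 16 clusters at E8.5 and 38 of 38 over 21 clusters at E9.5. These members were picked on sums over the same cells, and the clusters of a comparison come from the same pair of libraries. Such agreement is therefore no replication, and the same count over all genes past the fold was not made. Of the 82 members, 39 passed at neither stage, 33 at E9.5 only and 5 at E8.5 only (Rpl22l1, Rpl35, Rpl38, Rpl39 and Rps28).

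Rpl26, Rpl29 and Rps29 were higher in cKO at both stages, Rpl29 at E8.5 only as long as its copies are not counted with it (below). Rpl26, which sits near the exit of the peptide tunnel, stood at 2509, 3539, 1314 and 3058 UPM, with log2 ratios of 0.50 (0.48 to 0.51) at E8.5 and 1.22 (1.21 to 1.23) at E9.5. Both cKO libraries were thus above both Ctrl libraries, and every cluster was higher, by 0.15 to 0.62 at E8.5 and 0.99 to 1.37 at E9.5. Rps29, a small zinc-binding protein of the small subunit, stood at 5770, 7985, 3026 and 4045 UPM. It was highest in both E8.5 libraries, with genotype ratios of 0.47 and 0.42.

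Rpl15 and Rps2 were lower in cKO at E8.5 and higher at E9.5. Rpl15 (chr14:18267823-18270986), a large subunit protein mutated in some families with Diamond-Blackfan anaemia, had 2011, 1232, 932 and 4510 UPM, log2 ratios of -0.71 (-0.73 to -0.69) and 2.27 (2.26 to 2.28). Its level was highest in cKO E9.5, the library counted on another gene table. All 21 clusters were higher there than in Ctrl E9.5 (2.11 to 2.43). Rps2, at the entry of the messenger RNA channel, had 7228, 5284, 4283 and 7211 UPM, ratios of -0.45 and 0.75. For Rps2 the outer libraries, Ctrl E8.5 and cKO E9.5, were almost level and the other pair lower.

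Of the 5 members that passed at E8.5 alone, 3 (Rps28, Rpl38 and Rpl39) have coding sequences under 300 bases. Rps28, at the exit of the messenger RNA channel, stood at 3719 UPM in Ctrl and 5353 in cKO (0.53, interval 0.51 to 0.54; 0.27 to 0.59 over clusters), and at E9.5 its libraries were level at 1870 and 1842. Rpl39, which lines the peptide tunnel, stood at 4245, 5561, 2752 and 3176 UPM, with ratios of 0.39 and 0.21. Rpl38 had ratios of 0.42 and 0.29. Rpl35, beside the tunnel exit, was the lower one at E8.5, with 4389, 3448, 2093 and 2476 UPM and ratios of -0.35 and 0.24. For each of these genes both E8.5 libraries lay above both E9.5 libraries, so the stage difference exceeded the genotype difference.

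Several members that passed at E9.5 alone were lowest in Ctrl E9.5 and highest in cKO E9.5. Rpl23a, a docking site for factors at the tunnel exit, stood at 3598, 3373, 2813 and 4792 UPM (0.77), and 0.61 with its copies. Rps12 stood at 3002, 3528, 2429 and 3885 UPM (0.68). Rps18, at the head of the small subunit, stood at 4553, 3737, 2976 and 4560 UPM (0.62), and with its copies its ratio was 0.29, under the fold. Rpl13, distinct from Rpl13a despite its name, was also highest in cKO E9.5, at 6958, 5667, 5715 and 8297 UPM (0.54), but lowest in cKO E8.5.

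Rpl13a went the other way. The gene (chr7:45125563-45128745 in GRCm38.p6), whose protein also takes part in silencing inflammatory transcripts, stood at 5683, 5355, 5395 and 1202 UPM. The first 3 libraries were nearly level, with log2 ratios of -0.09 between genotypes at E8.5 and -0.08 between stages, and cKO E9.5 was lower by a log2 ratio of -2.17 (-2.17 to -2.16), the lowest of all members. All 21 clusters were lower, from -2.43 to -1.93. The gap between the E9.5 libraries amounted to 438670 UMIs at the depth of cKO E9.5, more than the 137560 UMIs of that library outside the shared genes, and Rpl13a-ps1, its near copy, did not change the ratio. The 137560 UMIs hold only reads that were counted on a listed gene. Reads left uncounted because they fit several genes would not be among them, nor would reads counted on another shared gene. The comparison therefore covers neither case. Whether the other gene table had a part in the gap was not tested.

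**Figure D2:**
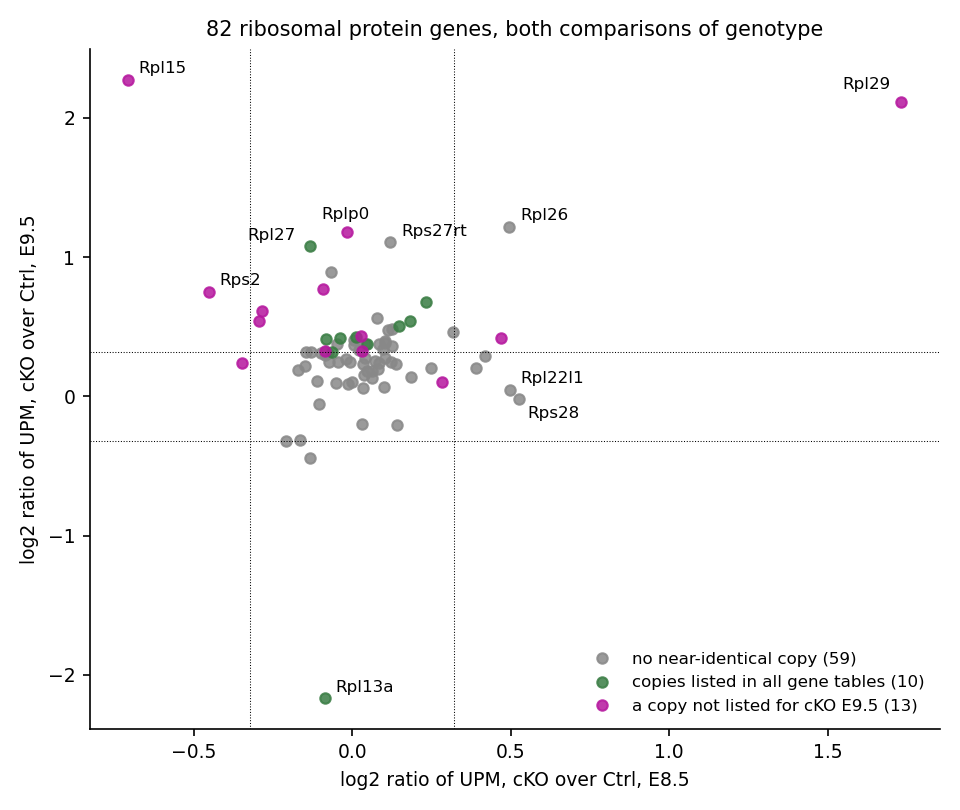
Log2 ratio of UPM, cKO over Ctrl, at E8.5 (horizontal) and E9.5 (vertical) for 82 ribosomal protein genes, 1 point each, coloured by whether near-identical copies are listed in the gene tables. Dotted lines mark a log2 ratio of 0.32 in either direction. Most points lie near 0 on the horizontal and 0.31 on the vertical axis, with Rpl15 and Rpl29 far above and Rpl13a far below.

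Ribosomal protein genes have many processed copies in the genome, and a read that fits more than 1 gene is not counted by the usual pipeline. A search of coding sequences found 35 listed genes with at least 90% identity over at least 80% of a member's coding sequence, belonging to 23 members and themselves no members. All 35 were listed for the first 3 libraries, where they held 0.704%, 0.539% and 0.714% of UMIs, but only 18 for cKO E9.5 (0.143%). The median log2 ratio at E9.5 was 0.54 for the 13 members with a copy not listed in cKO E9.5 (11 higher), 0.42 for the 10 members whose copies were all listed (8 higher, 1 lower) and 0.25 for the 59 members with no copy (17 higher, 1 lower). Here and below, a member without a copy is one with none of these 35 genes. Rps27 and Rps27rt, identical in coding sequence, thus count as without a copy, as does Rpl6, whose near copy Rpl6l is itself a member. Rpl24 and Rpl41 had no coding sequence in the transcripts used and were not searched, and they count as without a copy here. The members without a copy held 21.5%, 22.1%, 18.1% and 21.4% of UMIs. Ctrl E9.5 was low among these too, by a log2 ratio of 0.25 for cKO over Ctrl.

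For Rplp0 and Rpl29 the ratios depended strongly on whether copies were counted with them. The ends of their coding sequences (GENCODE vM1, last 60 bases, differing bases in capitals) are shown beside those of a copy. Transcript bases beyond the coding sequence were not compared, so how well the counted reads told the pairs apart was not tested.

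Rplp0: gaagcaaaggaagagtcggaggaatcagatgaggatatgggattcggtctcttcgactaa
Gm8730: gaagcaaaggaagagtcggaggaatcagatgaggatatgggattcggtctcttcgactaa
Rpl29: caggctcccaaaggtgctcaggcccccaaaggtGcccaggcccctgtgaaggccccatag
Gm10709: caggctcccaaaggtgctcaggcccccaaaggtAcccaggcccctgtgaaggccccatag

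Rplp0 and Gm8730 differed at 12 of 954 coding bases, none of them in this stretch, and Rpl29 and Gm10709 at 4 of 483, of which 1 lies here. Rplp0, the protein that anchors the stalk, stood at 3442, 3401, 2624 and 5956 UPM, and Gm8730 at 3224, 2329 and 3469 UPM in the libraries that list it. The Rplp0 ratio at E9.5 was 1.18 (1.18 to 1.19) alone and -0.03 (-0.04 to -0.03) with Gm8730 added, so its direction turned. Rpl29, which helps set the pace of growth in mice but is not essential, stood at 596, 1980, 535 and 2317 UPM, and Gm10709 at 1460, 410 and 698 UPM. With all copies added, the Rpl29 ratio fell from 1.73 to 0.21 at E8.5 and from 2.11 to 0.89 at E9.5. At E8.5 both libraries list the same copies, and UMIs stood more on Gm10709 in Ctrl and more on Rpl29 in cKO. Rpl15 has 1 copy (Gm10020, 76.5, 55.7 and 38.2 UPM), and its E9.5 ratio was 2.22 with it. Whether the other gene table had a part in the Rpl15 ratio was not tested.

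**Figure D3:**
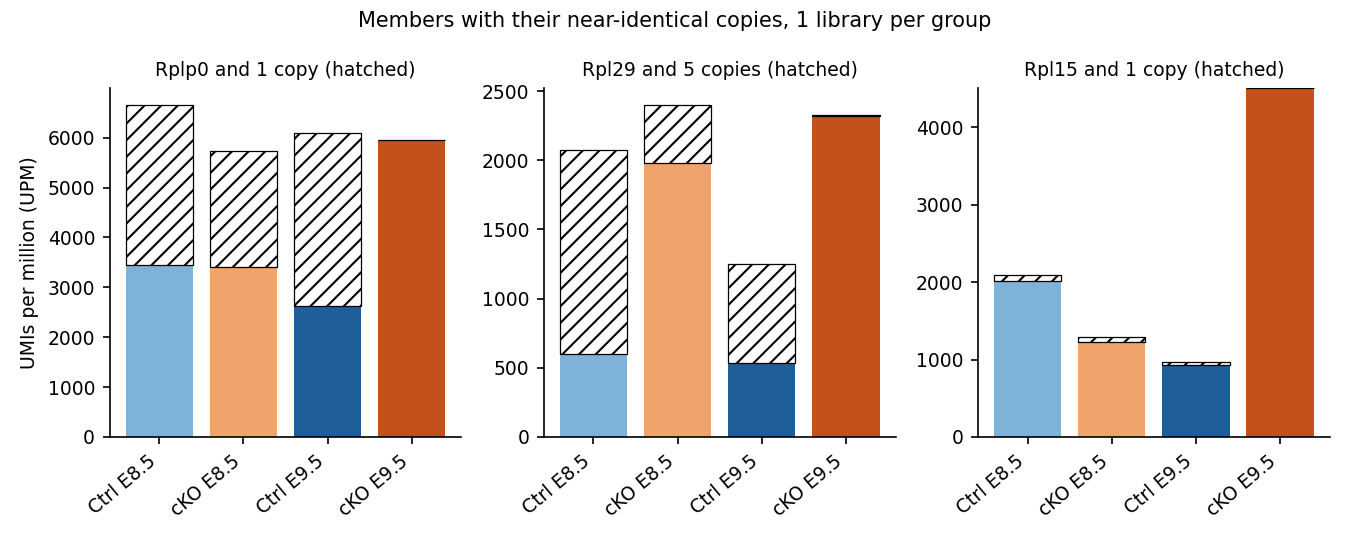
UPM of Rplp0, Rpl29 and Rpl15 (solid) with their near-identical copies stacked on top (hatched), 1 bar per library. Gm8730, Gm10709 and Gm10020 are not listed for cKO E9.5, which was counted on another gene table. With its copy, Rplp0 is nearly level between the E9.5 libraries, while Rpl15 is at 4510 UPM in cKO against 970 in Ctrl.

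Among the 31 small subunit genes 13 were higher in cKO at E9.5 and 0 lower, with a median of 0.30 and values from -0.05 to 0.89. Rps24, needed to process small subunit RNA, was at the top with 2969, 2836, 2318 and 4307 UPM (ratio 0.89). Rps19, the gene most often mutated in Diamond-Blackfan anaemia, did not pass: it stood at 6751, 6084, 5572 and 6484 UPM, ratios of -0.15 and 0.22. Among other anaemia genes, Rps26 (0.44) and Rpl35a (0.49) passed at E9.5 and not at E8.5. Rps6, the target of S6 kinase, passed in no comparison, at 3805, 3803, 3896 and 4185 UPM. Rpsa, also known as the laminin receptor precursor, stood at 2609, 2839, 3110 and 3697 UPM.

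Among the 41 large subunit genes 19 were higher in cKO at E9.5 and 1, Rpl13a, lower, with a median of 0.32. Rpl3, Rpl4 and Rpl5, which encode long proteins of the large subunit, had the lowest ratios after Rpl13a and Rpl36al, at -0.32, -0.31 and -0.20. None of these 3 passed, and the 0.26 that TMM scaling adds brings them close to 0 and turns the sign of Rpl5. Rpl27 was at the other end, at 1799, 1639, 894 and 1888 UPM with an E9.5 ratio of 1.08, and there Ctrl E9.5 was the low library. Rpl24, deleted in the Belly spot and tail mouse, stood at 3125, 3211, 2684 and 3250 UPM and passed in neither genotype comparison.

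The stalk, where translation factors dock, carries pairs of Rplp1 and Rplp2 on Rplp0. Rplp1 stood at 5401, 5987, 4074 and 5769 UPM and Rplp2 at 4502, 4817, 3471 and 4389 UPM. Both were higher in cKO at E9.5, by log2 ratios of 0.50 for Rplp1 and 0.34 for Rplp2, as was Rplp0 unless its copy is added. The ratio of Rplp1 to Rplp2 UMIs stayed between 1.17 and 1.31. Rpl5 and Rpl11, which carry the 5S RNA into the large subunit and restrain Mdm2 when ribosome assembly fails, moved apart. Rpl5 stood at 1061, 1171, 1337 and 1162 UPM and Rpl11 at 3830, 3659, 3639 and 4547 UPM, so Rpl5 was 0.277, 0.320, 0.368 and 0.256 of Rpl11 in UMIs. Neither passed between genotypes at either stage, Rpl11 by a small margin at E9.5 (0.321) and Rpl5 at -0.20.

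Between stages in Ctrl, 4 members were higher at E9.5 and 28 lower, against a background of 53.4% higher and 9.67% lower (63.1% in either direction). Under TMM scaling, which takes 0.35 off every stage ratio, 67 members passed, 0 higher and 67 lower. How many of all genes passed under that scaling was not counted. The median was -0.23 for members, 0.37 for other genes and -0.05 for abundant nuclear genes. Medians by coding length are given below. Of the 32 members past the fold, 31 moved the same way in all 18 clusters compared, and Rplp0 was the exception, higher in 1 cluster. As between genotypes, these members were picked on sums over the same cells. The 4 higher members were Rps4x (0.37), Rpl5 (0.33), Rpl7a (0.33) and Rpl3 (0.32), and under TMM scaling all 4 calls were lost, with Rps4x at 0.02 and Rpl5, Rpl7a and Rpl3 turned to -0.02, -0.02 and -0.03. Rpl3 stood at 3212, 2779, 4021 and 3223 UPM and Rpl7a at 1351, 1645, 1701 and 1827 UPM, so Ctrl E9.5 was the highest library for Rpl3 and cKO E9.5 for Rpl7a. Rps4x, on the X chromosome, stood at 3151, 2929, 4071 and 3927 UPM. The other X-linked members had stage ratios of 0.18 for Rpl10, -0.38 for Rpl36a and -0.63 for Rpl39.

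All members with the shortest coding sequences were among the lower ones. Rpl38, whose loss in the Tail-short mouse impairs translation of Hox transcripts, encodes a protein from 213 coding bases and stood at 3418, 4567, 1631 and 1996 UPM, a stage ratio of -1.07 (-1.08 to -1.06). Rps28 (210 coding bases) stood at 3719, 5353, 1870 and 1842 UPM, a stage ratio of -0.99. For both genes each E8.5 library was above each E9.5 library. The 10 members with 300 coding bases or fewer that were counted had a median stage ratio of -0.83 (-1.09 to -0.53), so every one was lower at E9.5. The median rose to -0.27 for the 29 members between 300 and 450 bases and -0.07 for the 18 up to 600. It was 0.01 for the 20 up to 900 and 0.23 for the 3 above that. Over other nuclear genes in the same bins, shortest first, it was -0.17, -0.03, 0.07, 0.24 and 0.39.

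Across 80 members with a coding length, Spearman's rho of length and stage ratio was 0.65 (Pearson's r with log2 length 0.66), and across the 57 without a copy 0.76. Across 7588 other nuclear genes it was 0.21. Between genotypes at E8.5, a comparison that shares Ctrl E8.5 with the stage comparison, rho over members was -0.47, and the short members were higher in cKO with a median of 0.28 (0.06 to 0.53). At E9.5 rho over members was -0.10. Over other nuclear genes rho between genotypes was 0.16 at E8.5 (4609 genes) and -0.26 at E9.5 (8683 genes). All genes of 1 comparison share the same pair of libraries, so these are descriptions of those libraries. Library preparation and read length cannot be told apart from stage here.

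**Figure D4:**
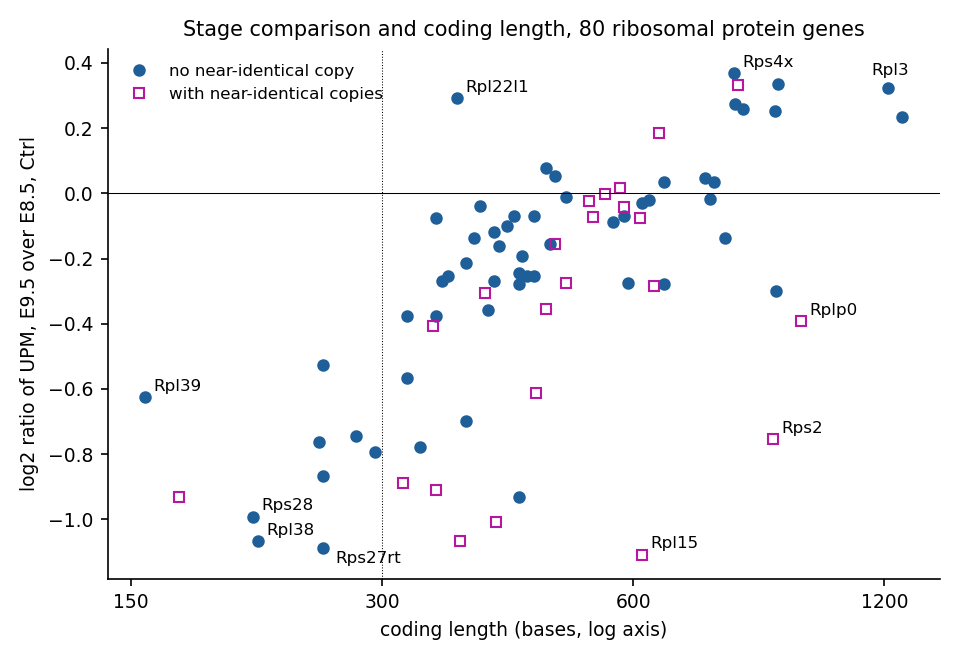
Log2 ratio of UPM, E9.5 over E8.5 in Ctrl, against coding length on a log axis for 80 ribosomal protein genes, 1 point each. Filled points have no near-identical copy outside the members. The dotted line marks 300 bases, to the left of which every gene is at -0.53 or lower. Rpl22l1, at 0.29, is the short exception among the genes highest above 0, which are otherwise over 600 bases long.

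Paralogs of core members fell into 3 groups. The first was not detectable or nearly so: Rpl3l, which replaces Rpl3 in mature striated muscle, had 0, 2, 5 and 3 UMIs, the testis gene Rpl10l 0, 2, 1 and 2, and Rpl39l 0, 6, 21 and 11. In Ctrl E8.5 a count of 0 in 1299 cells thinned to 10000 UMIs allows up to 0.231% of cells with a UMI. Rpl3l had 1 UMI in the 108 CM-like cells of Ctrl E9.5, the class with contractile genes.

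The next group was broad and abundant. Rpl22l1, the partner of Rpl22, made up 52.0%, 59.3%, 59.4% and 56.0% of the UMIs of the pair, so it outnumbered Rpl22 in every library. It stood at 1697, 2397, 2079 and 2151 UPM, higher in cKO at E8.5 (0.50) and level at E9.5 (0.05), while Rpl22 was at 1564, 1645, 1421 and 1691 UPM. Rpl36al, an autosomal relative of the X-linked Rpl36a, made up 29.9%, 28.2%, 27.2% and 20.5% of its pair, and its E9.5 ratio was -0.45 (-0.46 to -0.43), lower in all 21 clusters. Rps27l, a p53-inducible relative of Rps27, made up 23.0%, 21.1%, 27.5% and 28.0%. Nearly every thinned cell held a UMI of these 3 genes (99.8% or more in each library).

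Rpl7l1 and Rps27rt formed the group in between. Rpl7l1, which acts in ribosome assembly, stood at 170, 173, 168 and 146 UPM and was found in 79.3%, 78.8%, 80.5% and 76.6% of thinned cells. Rps27rt has the same coding sequence as Rps27, so reads of the pair can be placed on either gene and its level is uncertain. It stood at 196, 213, 92.1 and 199 UPM and was found in 85.9%, 86.7%, 60.8% and 86.4% of thinned cells (92.3%, 93.6%, 76.6% and 93.7% unthinned), with Ctrl E9.5 again the low library. Thinning left out 135, 84, 555 and 718 shallower cells. No cell type known to lack Rpl7l1 or Rps27rt was among these cells, so a background share from free RNA was not tested.

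Within a library the members kept nearly the same proportions in every class. After dividing each member by the summed members of its class, the median SD over classes was 0.06, 0.05, 0.06 and 0.06 on the log2 scale. The 5 that varied most in Ctrl E9.5 were Rpl29, Rps27l, Rpl36al, Rps27rt and Rpl7l1, of which all but Rpl29 are paralogs. The ranking made no allowance for counting error, which is larger for members with few UMIs, such as Rps27rt (92.1 UPM) and Rpl7l1 (168 UPM). The part of counting error in the ranking was not tested. Rps27l took a smaller part of the pool in MLP-like cells (-0.31, interval -0.39 to -0.24) and Mesenchyme-like cells (-0.28, -0.32 to -0.24) than in the other named classes together, and a larger one in pSHF-like cells (0.26, 0.20 to 0.31). In cKO E9.5 the values for Rps27l were -0.23, -0.31 and 0.43, on the same side in each class. At E8.5 the order was not seen in MLP-like cells (0.04 in Ctrl and 0.06 in cKO).

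Rpl36al showed a like order at E9.5. Its part of the pool was smaller in Mesenchyme-like cells (-0.38 in Ctrl and -0.28 in cKO) and MLP-like cells (-0.24 and -0.23) and larger in CM-like cells (0.24 in both). In the E8.5 libraries the Rpl36al values for Mesenchyme-like cells were -0.08 and 0.07, with intervals that include 0. Rpl22l1 differed from both, with a part that was larger in Mesenchyme-like (0.16) and Endothelial-like (0.13) and smaller in Epithelial-like (-0.17) and CM-like cells (-0.16) of Ctrl E9.5. Cells are not replicates, and differences between classes were not tested.

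**Figure D5:**
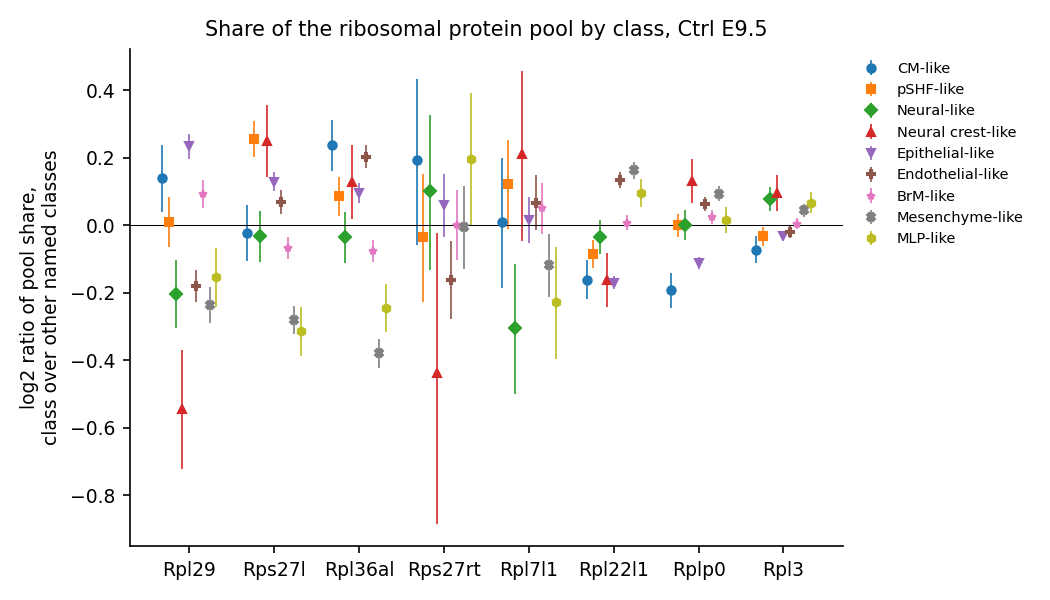
Log2 ratio of each gene's share of summed ribosomal protein UMIs, 1 named class over the other named classes, in Ctrl E9.5. Points are classes and bars are exact counting intervals. Rps27l and Rpl36al lie lowest in Mesenchyme-like and MLP-like cells, Rps27l at -0.31 in MLP-like and Rpl36al at -0.38 in Mesenchyme-like cells, while Rplp0 and Rpl3 stay within 0.20 of 0.

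Other genes of the translation machinery, from lists chosen with earlier results known, are given beside the shares of all genes: 9.99% higher and 43.4% lower in cKO at E9.5, and 53.4% higher and 9.67% lower between stages. Fau, which encodes the ribosomal protein S30 but lies outside the naming rule, was higher in cKO at E9.5 and lowest in Ctrl E9.5, at 3161, 3045, 2468 and 3432 UPM (0.48). Gnb2l1 (Rack1) had a ratio of -0.11. Of 19 other TOP and translation genes 3 were higher and 5 lower in cKO at E9.5 (median -0.01), and between stages 9 were higher and 0 lower (median 0.30, with Eef1a1 at 0.83), a share close to that of all genes.

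Ribosome biogenesis genes, such as Ncl and Fbl, were 1 higher and 14 lower of 26 in cKO at E9.5 (median -0.36, against -0.26 for genes that are not members), and 1 higher and 11 lower between stages (median -0.18). Mitochondrial ribosomal protein genes, built for the separate ribosome of mitochondria, were 6 higher and 9 lower of 76 at E9.5 (median 0.05). Of 13 counted p53 targets 0 were higher and 8 lower in cKO at E9.5, and 8 higher and 1 lower between stages, with all genes leaning the same way. Genes of dissociation stress were 0 higher and 6 lower of 9 in cKO at E9.5 and 7 higher and 0 lower between stages, again in the direction of all genes, and the part of handling in the member values was not tested. Abundant genes of glycolysis and the cytoskeleton were 1 higher and 7 lower of 16 in cKO at E9.5 (median -0.19). Mitochondrially encoded genes were 9 higher and 0 lower of 13 in cKO at E8.5 (median 0.83), where 17.3% of all genes were higher and 8.9% lower. At E9.5 these genes were 0 higher and 5 lower (median -0.14).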

How the data were processed

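The authors deposited UMI counts per gene and cell barcode, made with Cell Ranger 3.1.0 (per the labels) on mm10, for 4 single-cell libraries, 1 per group. The E8.5 headers name version 3.0.2. No deposited barcode was removed, and no doublet caller was run. Counts were summed over cells and divided by UMIs of the 27514 shared identifiers. Ratios carry exact conditional binomial intervals, levels Poisson intervals and shares Clopper-Pearson intervals, tested on simulated data. Cells were clustered in Seurat 5.3.0 (2000 variable genes, 30 components, resolution 1) without member, mitochondrial, haemoglobin and sex-linked genes, giving 23 clusters. A cluster was named where at least 3 markers of a list were 1.5-fold higher in its Ctrl cells, at least 1 of them was among its top 10 genes and no other list had as many there, a rule set after the clusters were seen. Other clusters with mesenchyme, heart field or haemoglobin markers stayed unnamed. Members, lists and rules for named genes (the 5 highest and 5 lowest ratios per comparison, the 5 most variable over classes, paralogs and genes fixed for their roles) were chosen with earlier results of these data known. Coding lengths and copies came from GENCODE vM1 transcripts matched by gene ID (84 members). TMM factors came from edgeR 4.0.16, and other steps ran in Python 3.11.15 with numpy 2.4.6, scipy 1.17.1 and pandas 2.3.3. Protein sequences were not used here. Some genes of the lists are not reported here.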

Additional observations from a re-analysis of the deposited data

Results flagged for a closer look

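Rpl15 and Rps2 differed in direction between stages: the log2 ratio of UPM, cKO over Ctrl, was -0.71 at E8.5 and 2.27 at E9.5 for Rpl15, and -0.45 at E8.5 and 0.75 at E9.5 for Rps2. With 1 library per group the difference between stages was not tested. Rpl6l, outside the comparisons because the cKO E9.5 gene table does not list it, held 1780 and 2861 UMIs at E8.5 (Ctrl and cKO) and 15838 in Ctrl E9.5 (70.5, 111 and 168 UPM). Its coding sequence is 98.7% identical to that of Rpl6, so its UMIs may be shared with that gene. Rpl36a-ps1, listed for cKO E9.5 only, held 9422 UMIs there.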

How the results depend on the processing

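No paired analysis was possible because each group had 1 library, and for the same reason no library could be left out. The copies, no-copy, all-cluster and haemoglobin-cluster settings were chosen after seeing the data. Log2 ratios of the share, in the order E8.5, E9.5 and stage, were 0.043, 0.44 and -0.39 over UMIs that are neither member nor mitochondrial, -0.012, 0.58 and -0.64 under TMM scaling, 0.013, 0.29 and -0.28 with copies added, 0.040, 0.25 and -0.25 over members without a copy, 0.016, 0.30 and -0.30 averaged over named classes, 0.0037, 0.31 and -0.28 averaged over clusters, and 0.023, 0.32 and -0.29 without the haemoglobin cluster. At E8.5 it was also 0.023 with filtered barcodes, 0.024 with each library's own gene table and -0.011 as a mean over cells. At E9.5 it was 0.33 with own gene tables and 0.32 without the deepest 5% of barcodes or with named pseudogenes added, and for the stage comparison -0.29 in both of these and -0.27 as a mean over cells. Members past the fold were 5, 18 and 20 of the 59 members without a copy, and 2, 12 and 20 of 82 at 1.5-fold. At E9.5 they were 60 of 82 with the other denominator and 73 of 82 under TMM, which gave 67 of 82 for stage. The shares of all genes past the fold were not counted at 1.5-fold, with the other denominator or under TMM. The class range was 11.5 points with the other denominator and 6.94 as a mean over cells, CM-like lowest and MLP-like highest in both. Rps27rt was in 60.8% of thinned and 76.6% of unthinned Ctrl E9.5 cells. Of 123 named ratios, those past the fold that changed sign were Rplp0 at E9.5 with copies (-0.033), and Rpl3 (-0.028), Rpl5 (-0.018) and Rpl7a (-0.019) between stages under TMM. Of the named ratios within the fold, 12 changed sign under TMM and at most 7 under any other setting. Counts of 0 to 21 UMIs for Rpl3l, Rpl10l and Rpl39l limit any comparison of them.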
